A study of Mus musculus with 6 samples.

Results

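The genes described here are 3 Notch receptors (Notch1, Notch2 and Notch3), 3 of their ligands (Jag1, Jag2 and Dll1) and 4 Hes and Hey genes (Hes1, Hes5, Hey1 and Hey2), measured in cultured mouse astrocytes after a Cre lentivirus or a control lentivirus. They were chosen by gene symbol, and the array held 1 probe for each, so that 10 probes of 23473 stand for the 10 members among 19321 named genes. The Cre group (3 arrays) and the control group (3 arrays) were both astrocytes from the cortex of newborn (P0) C57BL/6J mice that carried floxed Chd7 alleles on both chromosomes, so the floxed alleles are shared by the controls. The medium of both held 10% serum, B-27, EGF and FGF2, and cells were harvested 3 days after infection. The Cre virus is meant to remove the flanked part of Chd7, the gene of an ATP-dependent chromatin remodeller, and the labels call these samples a knockdown. The sources used here do not give the promoter that drives Cre or whether replicates are separate cultures or animals, so the error behind each p-value is the spread among these 6 arrays and may be technical.

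Notch receptors are single-pass membrane proteins that are activated by Jagged and Delta ligands on a neighbouring cell. Ligand binding lets a metalloprotease and then the gamma-secretase complex cut the receptor, and the freed intracellular part enters the nucleus, binds the DNA-binding protein RBPJ and turns on Hes and Hey genes, which encode basic helix-loop-helix repressors. In the developing cortex this pathway holds progenitors back from becoming neurons and takes part in the switch to astrocytes.

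The direct link between receptor and target is the RBPJ site, and sites of this kind are shown because Hes5 and Hey2 are the members in which it was found. RefSeq start regions (GRCm38.p6, 250 bases before to 50 after an annotated start) were at hand for 8 of the 10 members, the other two being Hes1 and Hey1. They were searched on both strands for GTGGGAA, a form RBPJ binds with high affinity, which contains the shorter core TGGGAA. Each gene's strand is shown 5′ to 3′ with the match in capitals; a match on the opposite strand reads TTCCCAC.
Hes5, chr4:154960673-154960728, plus strand, match on the opposite strand: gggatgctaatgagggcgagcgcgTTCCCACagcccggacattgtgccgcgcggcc
Hes5, chr4:154960815-154960871, plus strand: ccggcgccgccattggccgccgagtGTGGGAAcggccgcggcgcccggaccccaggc
Hey2, chr10:30842959-30843015, minus strand, match on the opposite strand: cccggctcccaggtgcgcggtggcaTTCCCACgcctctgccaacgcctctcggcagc
Hey2, chr10:30842756-30842812, minus strand: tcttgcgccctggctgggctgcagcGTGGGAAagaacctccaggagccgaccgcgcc
Of the 9 member regions (Dll1 has 2 annotated starts), 2 held GTGGGAA, each 2 times, and the same 2 held the core; among all 32851 start regions, 6.38% held GTGGGAA and 25.6% held TGGGAA. The N box CACNAG, a sequence bound by Hes proteins, lay in 4 of the 9 regions against 42.5% of all regions, and the E box CACGTG, bound by Hey proteins, lay in 0 of 9 against 7.15%. These are matches of letters in a short window.

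The whole-array facts set the limits. Between 82.9 and 87.0% of probes lay above background on Cre arrays and between 87.4 and 90.8% on control arrays, where background is the mean of the blank spots plus 2 SD. All 12 genes of an astrocyte marker list were above background on all 6 arrays; 11 of the 12 had a log2 difference above 0, with a median of 0.23. The summed deposited value of the astrocyte markers overlapped, at 6489 to 8271 units on Cre arrays and 4869 to 8665 units on control arrays. Of 12 tested microglia and macrophage markers, 9 lay below 0, with a median of -0.11, and their summed deposited value was 294 to 384 units on Cre arrays and 389 to 422 units on control arrays. On that deposited scale the Cre mean was in median 88.9% of the control mean over probes with a value on every array. At an unadjusted limma p under 0.05, 4 astrocyte markers were higher and 0 lower, beside 2.77% and 2.85% of all probes. Of the microglia and macrophage markers, 4 were lower and 1 higher. No gene of either list passed the adjusted threshold, and the part of these cells in the values below was not tested. The brighter probe of Chd7 read 8, 7 and 8 units in Cre cultures and 42, 89 and 46 units in control cultures in the authors' deposited table, a limma log2 difference of -1.13 (SE 0.16, n = 3 per group) with an adjusted p of 0.406 over all probes. The other Chd7 probe read 9, 6 and 11 units in Cre cultures and 11, 13 and 14 units in control cultures. Its log2 difference was -0.11 (SE 0.06, limma adjusted p = 0.997), and the groups overlapped. No probe of the 20542 tested passed an adjusted p of 0.05 (limma with Benjamini-Hochberg adjustment, 0% called), while 1154 (5.62%) had an unadjusted p under 0.05.

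All 10 members passed the filter on dim probes, and 0 of them passed the adjusted threshold in either direction, against 0% of all probes. None had an unadjusted p under 0.05, against 5.62% of all probes, and in all 10 the log2 intensities of the 3 Cre arrays overlapped those of the 3 control arrays, while 10.5% of all probes did not overlap. The log2 differences ran between -0.14 (Hey2) and 0.05 (Notch1), 5 above 0 and 5 below, with a median of -0.003 beside -0.0006 over all probes tested. The limma adjusted p lay between 0.936 and 0.999 (n = 3 per group).

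2 scales are used below. The authors' deposited table holds linear intensities rounded to whole numbers, and in it the whole array leans toward control: over 19563 probes with a value on every array, the Cre mean was in median 88.9% of the control mean. The log2 intensities were corrected against the blank spots and quantile normalised, which removes that lean and, through an added offset of 50, compresses differences of dim probes. On the deposited scale 8 of 9 members with 6 values had a lower Cre mean, as did 77.8% of all probes; 4 of the 9 lay above the table's median of 88.9% and 5 below it, with a median of 88.6%.

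**Figure D1:**
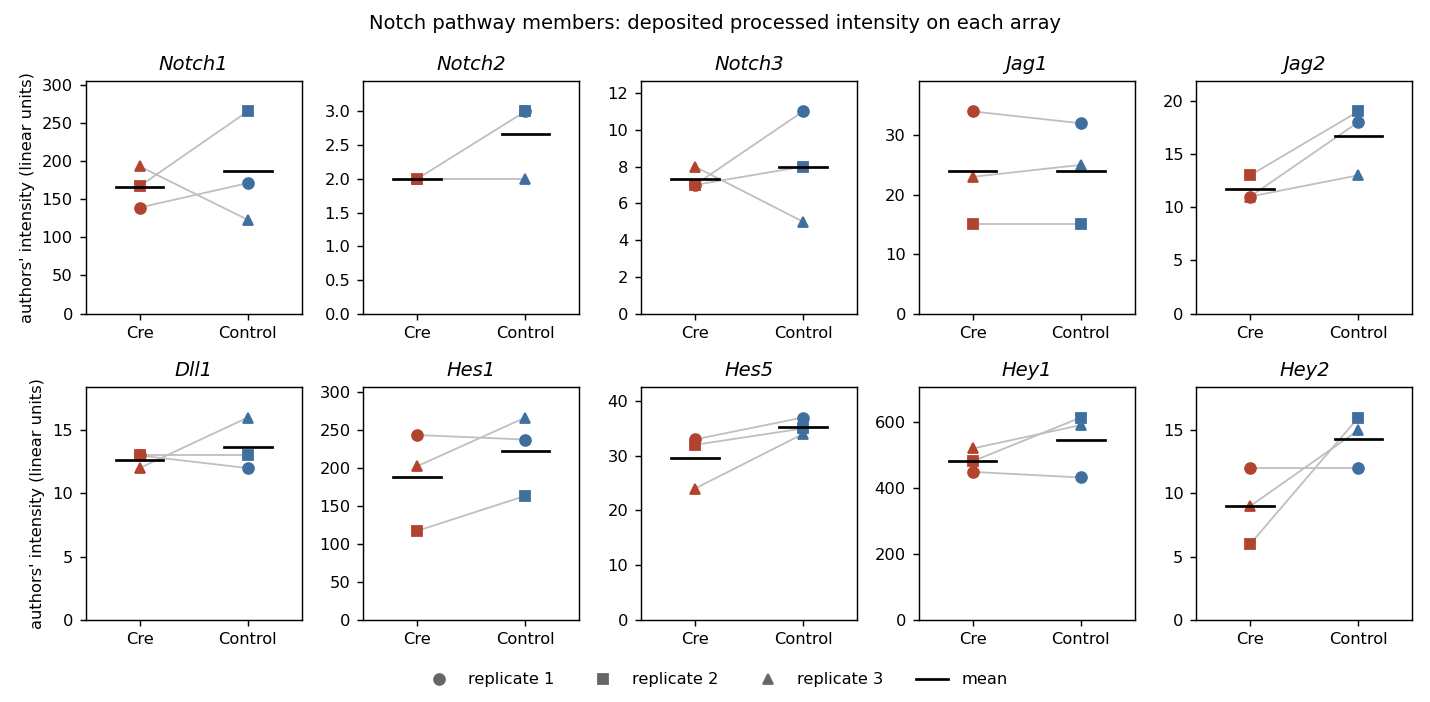
Deposited intensity (linear units, each panel from 0) of the 10 members on each array, Cre left and control right; symbols mark the replicate number, grey lines join same-numbered arrays and black bars are means. Jag1 keeps its order of replicates in both groups (34, 15 and 23 in Cre, 32, 15 and 25 in control), Notch1 does not, and Notch2 has only 2 Cre points because the table is empty for Cre replicate 1.

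Notch1 encodes the receptor best known for keeping neural progenitors undifferentiated. Its probe M300005379 read 139, 167 and 193 units in Cre cultures and 171, 265 and 123 units in control cultures in the deposited table, in the order of replicates 1 to 3. The 3 Cre values all lay inside the range of the control values, which spanned more than a doubling. On the log2 scale Notch1 averaged 8.43 ± 0.23 in Cre and 8.38 ± 0.41 in control cultures (SD, n = 3 each), a difference of 0.05 (SE 0.23, limma adjusted p = 0.999). The same-numbered pairs differed by -0.27, -0.20 and 0.62, so that the third pair ran against the other two. Without control replicate 3, the lowest of the 6 arrays, the difference was -0.17. It was -0.01 without Cre replicate 2 and -0.02 without Cre replicate 3. The difference was 0.24 without control replicate 2, 0.18 without Cre replicate 1 and 0.08 without control replicate 1.

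Notch2 encodes a close relative of Notch1 that is present in many glial and progenitor cells, but its probe M300005826 barely registered here. The deposited table was empty for Cre replicate 1 and held 2 and 2 units for the other Cre arrays, against 3, 3 and 2 units in control cultures. The spot was above background on 2 of 3 Cre arrays and on 3 of 3 control arrays. Its log2 difference of -0.02 (SE 0.04, limma adjusted p = 0.999) describes a probe at the edge of detection, and nothing can be read from it about the receptor's level.

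Notch3 encodes a receptor known above all from the mural cells of blood vessels. Its probe M300011370 read 7, 7 and 8 units in Cre cultures and 11, 8 and 5 units in control cultures. The probe was dim on every array though above background on all 6, and the Cre values fell within the control range. The log2 means were 5.99 ± 0.03 in Cre and 5.97 ± 0.10 in control cultures (SD, n = 3 each), a difference of 0.02 (SE 0.06, limma adjusted p = 0.999). Markers of mural cells and fibroblasts, a list of 14 genes of which 11 were above background on all 6 arrays, summed to between 9166 and 15210 deposited units on Cre arrays and between 11875 and 16812 units on control arrays; their median log2 difference was 0.00, and 0 of the 14 passed the adjusted threshold. In bulk cultures, fewer cells of a type and less RNA per cell cannot be told apart.

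Jag1 encodes the Jagged ligand that activates Notch on adjoining cells. Its probe M300005550 read 34, 15 and 23 units in Cre cultures and 32, 15 and 25 units in control cultures. Replicate 1 was highest and replicate 2 lowest in both groups, and the group means were equal at 24.0 units. The log2 means were 6.51 ± 0.23 in Cre and 6.47 ± 0.25 in control cultures (SD, n = 3 each), a difference of 0.04 (SE 0.17, limma adjusted p = 0.999). Most of the spread within a group was thus common to same-numbered arrays, as described further on.

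Jag2, the second Jagged ligand, was the only member whose log2 intensity was lower in the Cre array of all 3 same-numbered pairs. Its probe M200008472 read 11, 13 and 11 units in Cre cultures and 18, 19 and 13 units in control cultures, with a shared value of 13 units at the border of the groups. The log2 means were 6.14 ± 0.06 in Cre and 6.26 ± 0.09 in control cultures (SD, n = 3 each), and the pairs differed by -0.21, -0.11 and -0.04. The difference of -0.12 (SE 0.06) had an unadjusted p of 0.106 and did not pass (limma adjusted p = 0.981). Having 1 of 10 members lower in all 3 pairs on the log2 scale compares with 15.5% of all probes. Corrected by the scanner's local background instead, Jag2 stood at 0.17.

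Dll1 encodes a Delta ligand that differentiating neuronal precursors show to their neighbours. Its probe M200002010 read 13, 13 and 12 units in Cre cultures and 12, 13 and 16 units in control cultures. The groups overlapped almost entirely, and the log2 difference was 0.01 (SE 0.05, limma adjusted p = 0.999, n = 3 per group). Its 95% interval, -0.11 to 0.13, is narrow in part because the offset compresses dim probes.

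Among the targets, Hes1, a repressor whose level oscillates in neural progenitors, varied more between replicates than between viruses. Its probe M200001751 read 243, 117 and 202 units in Cre cultures and 237, 163 and 266 units in control cultures. Replicate 2 was the lowest array in both groups. The log2 means were 8.54 ± 0.37 in Cre and 8.63 ± 0.40 in control cultures (SD, n = 3 each), a difference of -0.09 (SE 0.27, limma adjusted p = 0.999). The difference changed sign, to 0.115, without Cre replicate 2, to 0.02 without control replicate 1 and to 0.03 without control replicate 3. It was -0.32 without control replicate 2, -0.25 without Cre replicate 1 and -0.13 without Cre replicate 3.

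Hes5, the Hes gene most tightly tied to Notch activity in neural progenitors, whose start region holds the pair of RBPJ matches shown above, read 33, 32 and 24 units in Cre cultures and 37, 35 and 34 units in control cultures (probe M300018827). On this deposited scale each Cre array lay below each control array, which made Hes5 the 1 member of 9 whose groups did not overlap; 12% of all probes did the same in that direction and 0.69% in the other. After quantile normalisation the arrays overlapped, at 6.72, 6.80 and 6.50 in Cre and 6.83, 6.70 and 6.72 in control cultures. The log2 difference was -0.08 (SE 0.09, limma adjusted p = 0.999, n = 3 per group), and it was 0.01 without Cre replicate 3, the lowest array. In the deposited table the Cre mean of Hes5 was 84.0% of the control mean, beside the median of 88.9% over all probes.

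Hey1, a repressor of the Hey subfamily that pairs with Hes proteins, was measured on probe M200006544 at 449, 481 and 520 units in Cre cultures and 432, 614 and 591 units in control cultures. Replicate 1 was the lowest array in both groups. The log2 means were 9.84 ± 0.14 in Cre and 9.81 ± 0.14 in control cultures (SD, n = 3 each), a difference of 0.02 (SE 0.10, limma adjusted p = 0.999). On the deposited scale the Cre mean was 88.6% of the control mean, close to the median of all probes.

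Hey2, the second Hey gene and the other member with RBPJ matches in its start region, had the smallest p among the members. Its probe M200008543 read 12, 6 and 9 units in Cre cultures and 12, 16 and 15 units in control cultures. The groups met at 12 units, the value of replicate 1 in both, while the other two Cre arrays lay below every control array. The log2 means were 6.04 ± 0.10 in Cre and 6.18 ± 0.06 in control cultures (SD, n = 3 each), and the pairs differed by 0.04, -0.28 and -0.18. The difference of -0.14 (SE 0.07) had an unadjusted p of 0.0768 and did not pass (limma adjusted p = 0.936); by exact permutation of the arrays (two-sided) p was 0.2, and with 3 arrays per group it cannot go below 0.1. With the blank mean subtracted, which does not compress dim probes, the log2 difference was -0.54 for Hey2, -0.415 for Notch2 and -0.37 for Jag2. None passed, and 5 of the 10 members lay below 0 in that setting. Notch2 was above background on 5 of the 6 arrays, and Jag2 and Hey2 on all 6. The part of detection limits in these differences was not tested.

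The width of the intervals sets what these arrays could and could not show. Without regard to replicate number, the 95% limma interval of the Cre to control ratio ran from 0.59 to 1.49 for Hes1 and from 0.70 to 1.54 for Notch1 on the log2 scale turned into folds, so changes of such size in either direction lay within the error. For Jag1 it ran from 0.77 to 1.36 and for Hey1 from 0.86 to 1.21. When the replicate number entered the fit as a block, the interval narrowed to 0.94 to 1.11 for Jag1, 0.94 to 1.10 for Hey1 and 0.83 to 1.06 for Hes1. It stayed wide for Notch1, at 0.69 to 1.55. No member passed in the blocked fit either, the smallest adjusted p being 0.599 (Jag2), and the count at an unadjusted p under 0.05 was 0 of 10 beside 9.34% of all probes. These ratios hold on the corrected scale with its offset, so for dim probes they understate the change in signal.

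**Figure D2:**
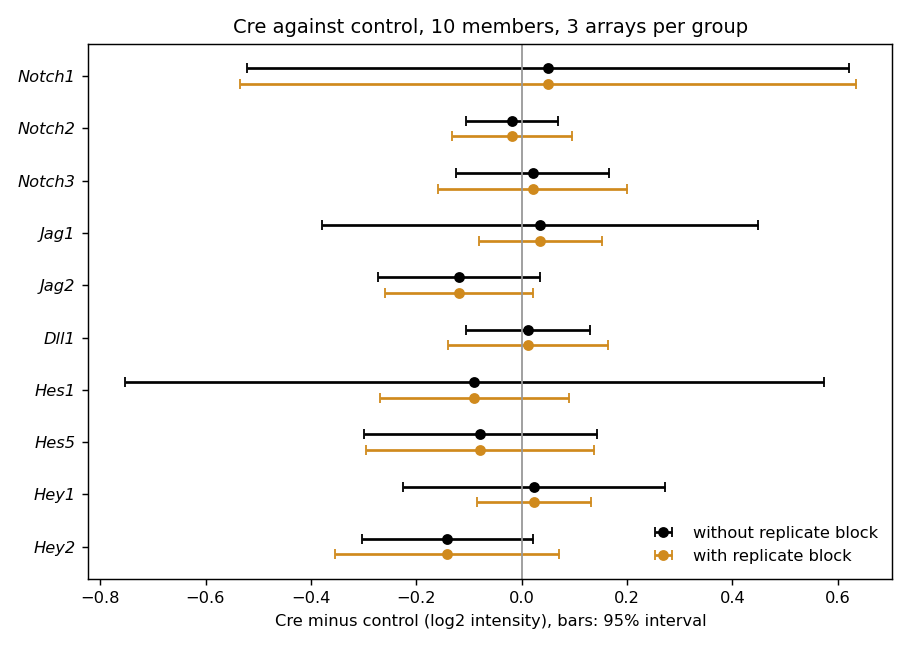
Cre minus control difference of each member in log2 intensity, with 95% limma intervals from 3 arrays per group, without the replicate block (black) and with it (orange). Every interval includes 0; those of Jag1, Hes1 and Hey1 shrink under the block (Hes1 from -0.75 to 0.57 without it and from -0.27 to 0.09 with it), while that of Notch1 does not.

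The arrays of Jag1, Hes1 and Hey1 were set apart more by replicate number than by virus. Of the squared deviation within the groups, the part that same-numbered Cre and control arrays had in common was 98.7% for Jag1, 97.8% for Hey1 and 97.2% for Hes1. Over all probes the median of this share was 62.5%, and 5.57% of probes exceeded 97%, a limit set after these values were seen. For the remaining members the share lay between 9.03% (Hey2) and 69.7% (Jag2), with Notch1 at 44.5% and Hes5 at 53.8%. The replicate term of the blocked fit, a test added after seeing the data, gave an unadjusted p of 0.00186 for Hes1, 0.00226 for Jag1 and 0.0125 for Hey1 in limma; this made 3 of 10 members under 0.05, beside 14.1% of all probes. None passed after adjustment over all probes (0.148 for Hes1, 0.158 for Jag1 and 0.239 for Hey1 in limma, and 0% of all probes called).

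The direction of these replicate differences was not the same for the 3 genes. Averaged over both viruses, the log2 level of Hes1 was 8.86 in replicate 1, 8.15 in replicate 2 and 8.75 in replicate 3. Jag1 had 6.72, 6.25 and 6.49 in the same order, so Jag1 and Hes1 were both lowest in replicate 2. A link between these 2 genes was not tested. Hey1 had 9.67, 9.93 and 9.88, with its lowest level in replicate 1. The replicate numbers carry no further label, and the sources used here do not say what distinguishes replicate 1 or replicate 2.

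**Figure D3:**
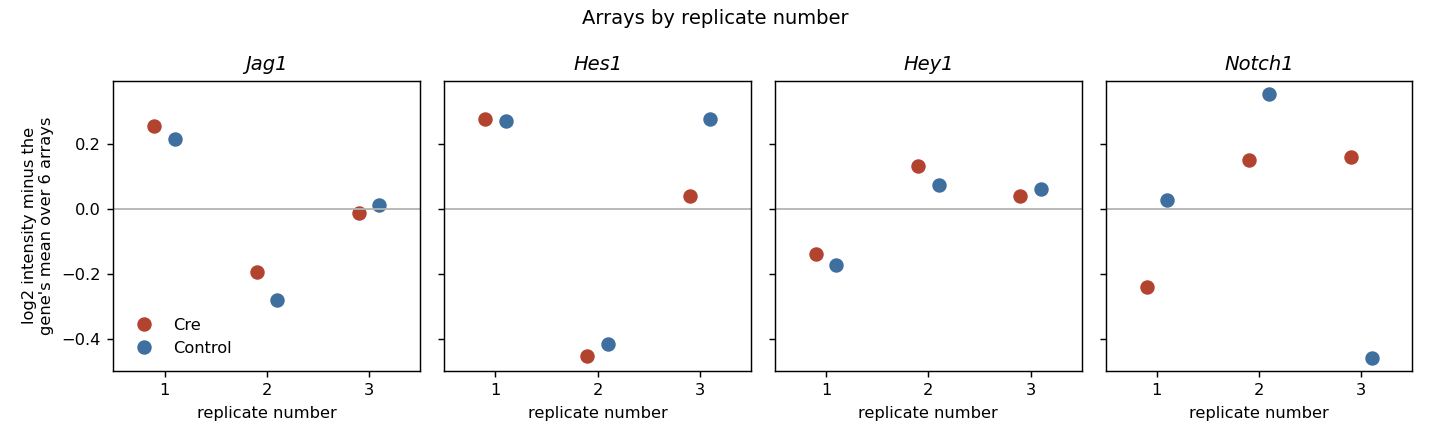
Log2 intensity of Jag1, Hes1, Hey1 and Notch1 on each array minus the gene's mean over the 6 arrays, by replicate number, for Cre (red, left) and control (blue, right). Same-numbered arrays lie together for Jag1 and Hey1 and in replicates 1 and 2 for Hes1, whereas for Notch1 the third pair differs by 0.62.

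The summed levels of cell type markers are given beside these genes by replicate number; they were not tested for differences between replicates, and their part in the levels of Jag1, Hes1 and Hey1 was not tested. Endothelial markers, a list of 10 genes, had 5 above background on all 6 arrays, and 2 defining ones, Cldn5 and Tek, above it on none. Their summed deposited value was 154, 69 and 121 units on Cre arrays and 225, 81 and 114 units on control arrays, lowest in replicate 2 and highest in replicate 1 in both groups, the order of Jag1. Mural cell and fibroblast markers summed to 15210, 9166 and 11907 units on Cre arrays and to 16812, 12878 and 11875 units on control arrays, highest in replicate 1 in both. Astrocyte markers summed to 6489, 7219 and 8271 units on Cre arrays and to 4869, 8665 and 7604 units on control arrays, lowest in replicate 1 in both, as Hey1 was. In lists of neural stem and of ependymal cells the sum was also lowest in replicate 1 in both groups, and in that of neuroblasts and neurons it was highest there. The remaining lists shared no such order between the groups: oligodendrocyte lineage markers summed to 2503, 1684 and 1874 units on Cre arrays and to 1871, 3341 and 1813 units on control arrays, and microglia and macrophage markers to 342, 294 and 384 units on Cre arrays and to 422, 419 and 389 units on control arrays.

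The genes whose array profile lay nearest to that of a member were looked up for Notch1 and Hes1, the members with the widest range over the arrays. For Notch1, whose log2 range was 0.81, these were Pgm1, a glucose phosphate mutase gene (root mean square distance 0.0962 log2 units over 6 arrays), the histone-binding protein gene Rbbp7 (0.0971) and the mitochondrial channel gene Vdac1 (0.101). For Hes1, whose range was 0.73, they were 4930555G01Rik (0.0739), the homeobox gene Msx1 (0.0755) and the DNA polymerase delta subunit gene Pold4 (0.0763). Among 20542 profiles over 6 arrays some will always lie close, so the names are a description.

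The rest of the pathway was taken from lists by role, 68 genes of which 64 were found on the array and 61 were tested, on 68 probes. Of these probes 0 passed the adjusted threshold in either direction (0% of all probes). At an unadjusted p under 0.05, 3 of the 68 were higher and 0 lower in Cre cultures, beside 2.77% and 2.85% of all probes. The groups did not overlap for 6 of the 68 probes with Cre higher and for 0 with Cre lower, beside 5.22% and 5.31% of all probes. Their median log2 difference was 0.03, with 44 probes above 0 and 24 below. With the replicate block, 5 of the 68 had an unadjusted p under 0.05, beside 9.34% of all probes, and 0 passed after adjustment.

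The receptor-cleaving enzymes held both probes of Adam17, a surface metalloprotease able to cut Notch. The brighter, M400004184, read 171, 140 and 143 units in Cre cultures and 116, 116 and 151 units in control cultures. The dimmer, M400004884, read 22, 17 and 23 units in Cre cultures and 16, 16 and 18 units in control cultures. In the deposited table the groups overlapped on both probes, while on the log2 scale each Cre array lay above each control array. The log2 differences were 0.35 (SE 0.12) and 0.18 (SE 0.05), with unadjusted p of 0.0255 and 0.0108, and neither passed (limma adjusted p = 0.784 and 0.690, n = 3 per group). The other 10 probes of this list did not reach an unadjusted p of 0.05; Adam10, the protease best known for ligand-dependent cleavage, stood at 0.09 and -0.22 on its 2 probes, and Aph1c, of the gamma-secretase complex, at 0.04.

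Among the other receptors and ligands, Dlk2, a non-canonical Delta-like protein, stood at 0.08 (SE 0.04), the Delta relative Dll3 at -0.11 (SE 0.07) and the contactin gene Cntn1, whose product can bind Notch, at -0.21 (SE 0.16). The sugar-transferring enzymes that modify the receptors included Poglut1 at 0.17, Pofut1 at 0.04 and Rfng at -0.16. Ligand uptake and receptor turnover genes included the ubiquitin ligase genes Mib2 at 0.07 (SE 0.03) and Neurl1b at 0.09 (SE 0.04, probe M300018282). For these probes and Dlk2, each Cre array lay above each control array on the log2 scale, as did 5.22% of all probes. In the deposited table the groups overlapped for all of them. A second Neurl1b probe, M400001697, was above background on 2 arrays, was not tested and stood at -0.02. Fbxw7, whose product marks the cleaved receptor for destruction, stood at 0.13 and 0.04 on its 2 probes. None of these passed (limma adjusted p between 0.936 and 0.999). The DNA-binding partner Rbpj, named outside the rule because its site is shown above, stood at 0.03 (SE 0.11), and its coactivators and corepressors had their smallest p for Maml2 (0.10 and -0.02 on its 2 probes), Tle4 (0.08) and Maml1 (0.10).

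The relatives of the Hes and Hey genes included Bhlhe41 at 0.13 (SE 0.06), Hes6, which can antagonise Hes1, at -0.22 (SE 0.16), and Nrarp, a feedback inhibitor that Notch turns on, at 0.13 (SE 0.16). Hes6 read 725, 589 and 694 units in Cre cultures and 677, 1190 and 851 units in control cultures, with control replicate 2 well above the rest. Among neurogenic transcription factors, of which several are repressed by Hes proteins, Neurod1 read 21, 12 and 19 units in Cre cultures and 5, 5 and 6 units in control cultures. Every Cre array of this dim probe lay above every control array, and its log2 difference of 0.46 (SE 0.07) had an unadjusted p of 0.000712 and did not pass (limma adjusted p = 0.406). Neurog1 stood at 0.04 (SE 0.05) and the homeobox gene Dlx1 at -0.23 (SE 0.20). Dlx1 was lower in the Cre array of each pair, by -0.12, -0.30 and -0.28, and its SE with the replicate block was 0.05 (unadjusted p = 0.014, limma adjusted p = 0.421). Markers of neuroblasts and neurons, a list of 12 genes that were all above background on all 6 arrays, had a median difference of 0.00, and summed to between 1055 and 1481 deposited units on Cre arrays and between 1300 and 1629 units on control arrays; their part in the Neurod1 value was not tested.

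**Figure D4:**
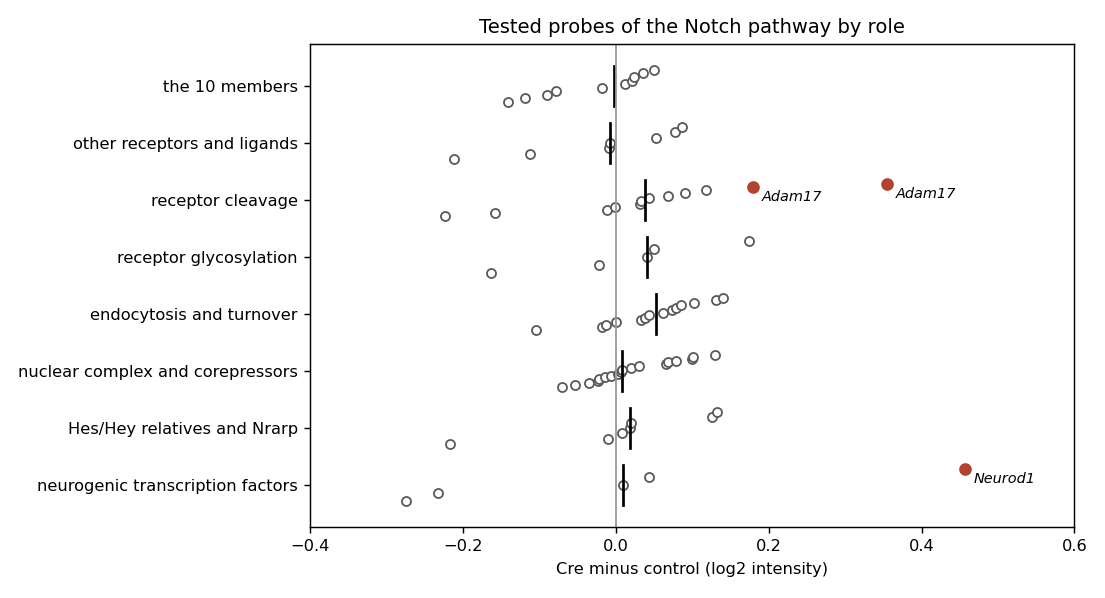
Cre minus control difference in log2 intensity of each tested probe, by role in the Notch pathway; filled red points have an unadjusted limma p under 0.05, open points do not, and black ticks are medians. The 10 members lie between -0.14 and 0.05, and the only filled points are both Adam17 probes (0.35 and 0.18) and Neurod1 (0.46), none of which passed after adjustment.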

How the data were processed

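Amplified RNA carried the dye Cy5 on 1-colour arrays, per the labels' protocols. For every spot the deposited scanner files give a median intensity and, unsubtracted, a local background intensity, per the file headers. A table of linear intensities, processed by the authors, was deposited too. Set against the scanner files, each column was the spot less the blank mean, divided by 1 factor per array (1.44 to 1.94), with a median of 25. No other step is given in the sources used here.

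Spot intensities were corrected by normexp against 2736 blank spots (limma 3.58.1, nec, offset 50, R 4.3.3), log2 transformed and quantile normalised. The scanner's local background served only as an alternative, since it rose with the spot: array means were 179 to 322 units at probe spots and 57.5 to 63.0 units at blank spots. Marked spots were left out (0 to 9 per array; none was a member's). Probes above background on at least 3 of 6 arrays were tested, 20542 in number, with lmFit and eBayes, two-sided, and Benjamini-Hochberg adjustment over all of them. A check of the fit on simulated data drew independent noise for each array, without the replicate pattern seen here, so it does not measure power for these arrays. The number of arrays limits the precision.

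Probe names came from the platform annotation; 20690 probes had 1 gene symbol, 0 had several, 2783 had none, and 20556 matched RefSeq's table for GRCm38.p6. The members, lists and tests were chosen with earlier results of these data known. Named genes were every member, Chd7 and up to 3 genes with the smallest p per role list, with 3 nearest profiles for the 2 members of widest range. Where a gene has several probes, each is given.

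Replicate numbers are shared by both groups. Across probes, deviations from group means had r of 0.498, 0.425 and 0.436 for arrays of equal number, and -0.373 to -0.167 for unlike numbers. On this basis the numbers were taken as pairs in the blocked fit, though the labels state no shared culture or day. The fit without a block was the main one, and its p-values and intervals leave this pairing out. Alternatives changed the background correction, offset, scaling, filter, starting values (the authors' table), the replicate block and each array in turn. Cre was present only where Chd7 was targeted, so the recombinase itself and the loss of Chd7 cannot be told apart.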

Additional observations from a re-analysis of the deposited data

How the results depend on the processing

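Under all 16 alternatives, 0 members, 0 other pathway probes and 0 of all probes passed the adjusted threshold, the replicate block (0) included. At an unadjusted p under 0.05 the members numbered 0 to 2 and all probes 615 (median scaling) to 1931 (the authors' values plus 16). Under the replicate block all probes numbered 1918, and no call changed. The 2 members were Jag2 and Hey2, with the authors' values plus 1 and plus 16. Beside them stood 1875 of 20532 probes (plus 1) and 1931 of 20532 (plus 16). Neither gene passed (limma adjusted p between 0.519 and 0.536), and all 10 members lay below 0 in both settings. The median of the members was -0.039 with plain subtraction, -0.032 with median scaling, -0.209 with the authors' values plus 1 and -0.128 plus 16 (where the median over all probes was itself -0.155 and -0.078), and -0.054 to -0.006 with 1 array left out. Hey2 was below 0 in every alternative. Signs turned for the other members, none of them called. With the scanner's local background Notch2 stood at 0.003, Jag2 at 0.172, Dll1 at -0.039, Hey1 at -1.323 and the dimmer Chd7 probe at 0.044. Notch1 moved to 0.713 and Hes1 to -0.203, both without a change of sign. The values of Notch1, Jag2 and Hey1 lay beyond their main intervals of -0.52 to 0.62, -0.27 to 0.03 and -0.23 to 0.27. Those intervals belong to the main correction, and the local background rose with the spot. None of these 3 values passed (limma adjusted p = 0.864 for each). With median scaling Notch1 stood at -0.005 and Hey1 at -0.046. With the authors' values plus 1 Notch1 stood at -0.105, Notch3 at -0.057, Jag1 at -0.010, Dll1 at -0.093 and Hey1 at -0.160, and plus 16 at -0.100, -0.033, -0.004, -0.047 and -0.156. With 1 array left out the ranges were -0.166 to 0.240 for Notch1, -0.030 to 0.002 for Notch2, -0.031 to 0.067 for Notch3, -0.096 to 0.152 for Jag1, -0.012 to 0.048 for Dll1, -0.319 to 0.115 for Hes1, -0.142 to 0.008 for Hes5 and -0.058 to 0.098 for Hey1. The causes were not tested. The brighter Chd7 probe stayed below 0 throughout, between -2.711 and -0.517. Notch2, Notch3, Dll1, Jag2 and Hey2 lie close to the blank spots, so signal over background limits what their probes can show.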
